A study of Mus musculus with 12 samples.

Results

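Endothelial cells line every blood and lymph vessel of adipose tissue, and 35 genes that mark them were followed here across lean and obese mice. The genes were taken by symbol: a gene counted if its symbol in the deposited count tables equalled one of the 35 listed names. The table with the Chow and HFD libraries held rows for all 35 (of 30327 genes), and the table with the HFD PCN and HFD Vehicle libraries held rows for 34 (of 30453 genes). Sox7 was the exception. By role, 24 of the genes are carried by endothelial cells of most vessels, 2 mark capillaries (Gpihbp1, Plvap), 2 capillaries and veins (Emcn, Aplnr), 4 arteries (Sox17, Dll4, Efnb2, Notch4), 2 veins and large vessels (Ephb4, Vwf) and 1 lymphatic vessels (Prox1).

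The libraries were made from RNA of the gonadal white fat pad, which lies beside the gonads, of C57BL/6N mice. There were 4 groups of 3 libraries. The Chow group ate regular chow and the HFD group a high-fat diet, in each case for 18 weeks from an age of 6 weeks, with no injection given in the labels. The HFD Vehicle and HFD PCN groups also ate a high-fat diet and were then injected into the abdomen on each of 4 days. Their labels give the same start age of 6 weeks and the same 18 weeks of diet. The vehicle was 30% DMSO in corn oil, and PCN (pregnenolone 16α-carbonitrile, an agonist of the rodent pregnane X receptor) was given at 50 mg/kg. The labels name no genotype, allele or sex. Libraries are given below in the order Chow 8, 17 and 19, HFD 4, 30 and 38, HFD Vehicle 23, 50 and 55, and HFD PCN 5, 11 and 27. Whether each library came from its own animal is not in the labels, and the p-values reflect only how far these libraries lie from each other.

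In adipose tissue, capillaries run beside nearly every fat cell. Their endothelium carries Gpihbp1, which brings lipoprotein lipase to the vessel lumen, where it releases fatty acids from circulating triglyceride. Arterial and venous endothelium differ in Notch signalling: Dll4 and Notch4 act in arteries, and the arterial ligand Efnb2 faces its venous receptor Ephb4. Lymphatic endothelium is set apart by the transcription factor Prox1. Transcription factors of the ETS family (Erg among them), of the SOX family (Sox7, Sox17 and Sox18) and Tal1 help to set the endothelial programme.

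The sequences before the start sites of several of these genes are shown as a description. Whether ETS, SOX or GATA factors had a part in the levels was not tested. The RefSeq promoter table (GRCm38.p6) held 17 of the 35 genes, with 23 start sites. The ETS motif AGGAAG, searched on both strands over the 250 bases before the start, was found at 10 of 23 start sites (43.5%), against 29.5% of all 32851 promoters in the table. The SOX motif ACAATG was found at 2 of 23 (8.7%, against 10.7% of all), and the GATA motif AGATAA at 3 of 23 (13%, against 9.99%). No motif contains another, and a match is a description of the letters only. The sequences below are those windows, 5′ to 3′ on the strand of the gene, with a match to AGGAAG or its reverse CTTCCT in capitals. Eng (chr2:32646345-32646594, plus strand) had 2 matches and the most downstream of 3 Erg start sites (chr16:95459349-95459598, minus strand) had 1. The other Erg start sites had none. Tek (chr4:94739039-94739288, plus strand), Ephb4 (chr5:137349859-137350108, plus strand) and Efnb2 (chr8:8661243-8661492, minus strand) had none in this window. Tek is shown as a gene of most vessels, and Ephb4 with Efnb2 as the venous and arterial sides of 1 receptor pair.
Eng: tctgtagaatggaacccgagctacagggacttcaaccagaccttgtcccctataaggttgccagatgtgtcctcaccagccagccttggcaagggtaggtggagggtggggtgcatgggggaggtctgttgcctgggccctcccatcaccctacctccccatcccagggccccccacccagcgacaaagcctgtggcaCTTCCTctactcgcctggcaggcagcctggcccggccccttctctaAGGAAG
Erg: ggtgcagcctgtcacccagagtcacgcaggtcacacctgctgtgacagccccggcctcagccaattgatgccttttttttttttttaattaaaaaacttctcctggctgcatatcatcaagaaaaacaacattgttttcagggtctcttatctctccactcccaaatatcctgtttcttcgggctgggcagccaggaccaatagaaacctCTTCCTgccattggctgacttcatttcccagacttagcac
Tek: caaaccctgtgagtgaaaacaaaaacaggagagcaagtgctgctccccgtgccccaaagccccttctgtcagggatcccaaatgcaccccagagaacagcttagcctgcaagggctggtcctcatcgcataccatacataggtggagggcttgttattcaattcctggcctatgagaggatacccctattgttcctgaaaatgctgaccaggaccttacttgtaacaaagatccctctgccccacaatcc
Ephb4: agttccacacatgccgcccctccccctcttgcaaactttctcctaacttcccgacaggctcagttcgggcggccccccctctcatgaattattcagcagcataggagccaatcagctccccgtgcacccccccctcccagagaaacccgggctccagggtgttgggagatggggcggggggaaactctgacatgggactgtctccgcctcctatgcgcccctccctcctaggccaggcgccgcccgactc
Efnb2: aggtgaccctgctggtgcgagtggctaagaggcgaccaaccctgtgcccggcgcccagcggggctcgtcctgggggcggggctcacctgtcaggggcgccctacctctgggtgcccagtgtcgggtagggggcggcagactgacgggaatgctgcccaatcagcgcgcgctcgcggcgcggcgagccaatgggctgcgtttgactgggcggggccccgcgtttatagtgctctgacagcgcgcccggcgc

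Total counts ranged from 11702225 to 13756819 in Chow, from 16646176 to 27408092 in HFD, from 11090117 to 24483210 in HFD Vehicle and from 16778389 to 26014587 in HFD PCN. The share of counts from mitochondrially encoded genes was 7.3, 10.6 and 29.6% in Chow 8, 17 and 19. It was 7.85% in HFD Vehicle 50 and 2.3 to 3.47% in the other 8 libraries. The share moved with the groups, and its part in the results was not tested beyond leaving those genes out. Chow 8 and 19 differed nearly as far beyond sampling noise (chi-square per degree of freedom 232) as HFD Vehicle 23 and 50 did (234). Chow 19 is part of every comparison with Chow. Without it, edgeR still called 32 of the 35 genes lower in HFD. The source label reads duodenum, while the title of the series names gonadal fat. The adipocyte gene Fabp4 was at 2812 to 8074 CPM (counts scaled to a common library total) over the 12 libraries, and the intestinal epithelial gene Epcam at 0 to 0.298 CPM, with Vil1 at 0.0701 to 2.83 CPM. Cdx2 and Fabp2 had no row. Endothelial markers were present throughout: Cdh5, the adhesion molecule of endothelial junctions, was at 87.8 CPM or more in every library.

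One HFD Vehicle library stood apart from its group in its endothelial and macrophage genes. HFD Vehicle 50 had most endothelial genes at or above their Chow levels and far above both other HFD Vehicle libraries, and its macrophage levels were low. The 10 endothelial genes used below as a reference summed to 1951 CPM in it, against 623 and 656 CPM in HFD Vehicle 23 and 55 and 1612 to 1725 CPM in Chow. Adgre1, the macrophage marker F4/80, was at 69.1 CPM in it, 889 and 894 CPM in HFD Vehicle 23 and 55, and 28.1 to 76.0 CPM in Chow. Counts, medians and named genes in comparisons with the HFD Vehicle group are therefore given with and without this library.

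**Figure D1:**
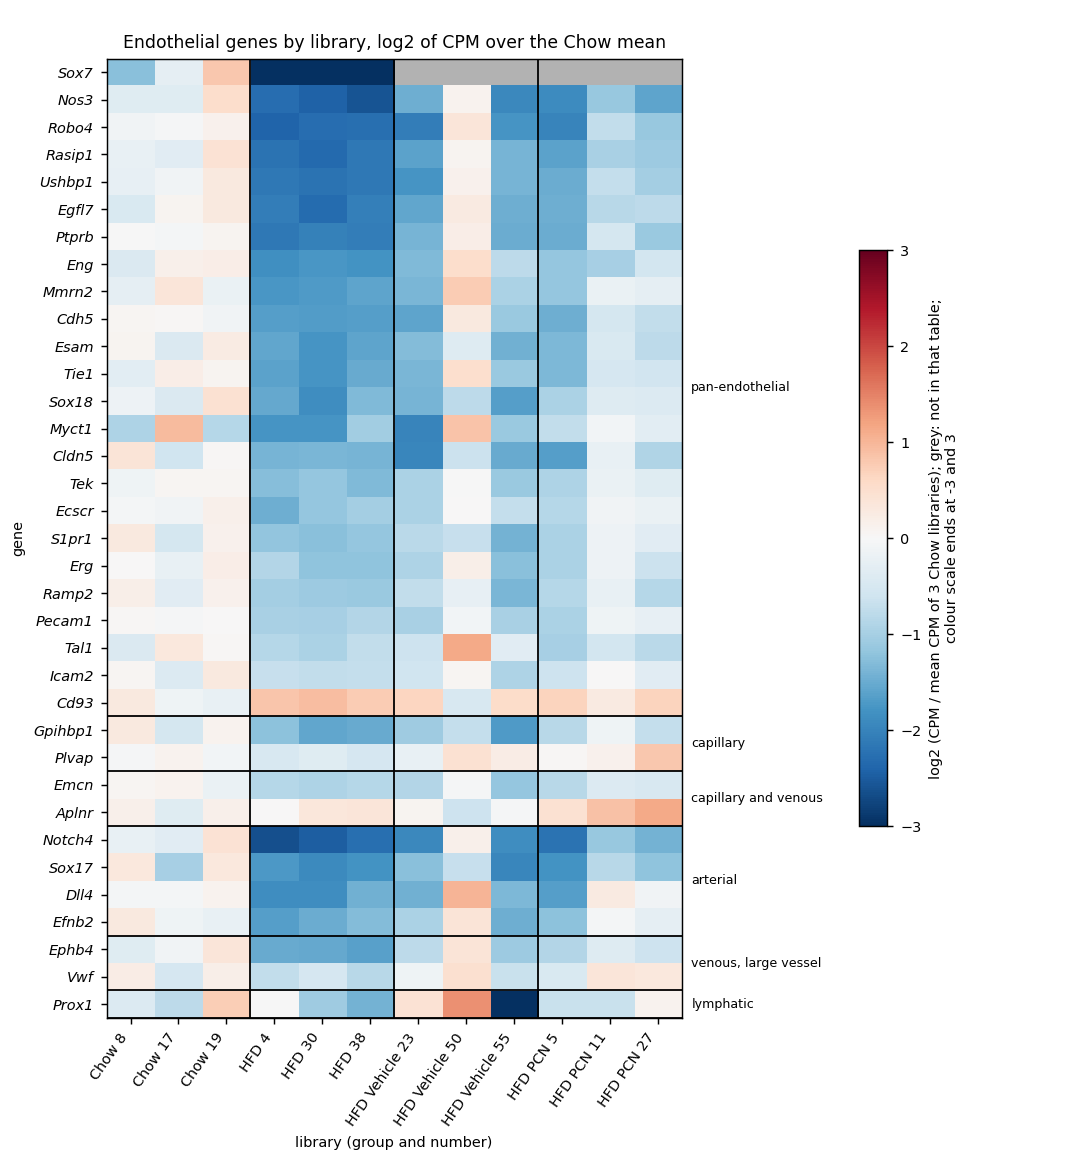
Each row is 1 gene, grouped by vessel type, and each column 1 library. Colour gives the log2 ratio of its CPM to the mean of the 3 Chow libraries, on a scale that ends at 3 in each direction, and grey marks Sox7, which has no row in the second table. The 3 HFD columns are blue for nearly all genes, Cd93 is red there, and HFD Vehicle 50 resembles Chow for most genes.

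With the high-fat diet, nearly the whole endothelial set was lower. Of the 35 genes, 32 fell, 1 rose (Cd93) and 2 did not pass the test (Aplnr and Prox1). The test was the quasi-likelihood test of edgeR with Benjamini-Hochberg adjustment at 0.05 over all 16216 genes tested, and each of the 35 passed the filter on low counts. Across all genes tested, 30.0% were called lower and 29.8% higher. The median log2 fold change of the 35 was -1.55, against -0.03 for all genes tested. Since whole tissue was sequenced, fewer endothelial cells and less of these RNAs per cell cannot be told apart. In the same HFD libraries 8 of 8 macrophage genes rose (summed level 6848 to 7669 CPM in HFD against 492 to 1379 CPM in Chow), and so did 5 of 6 mast cell genes. Of 7 adipocyte genes 6 fell, with a summed level of 6824 to 8607 CPM in HFD against 17749 to 21986 CPM in Chow. The part of these other cells in the endothelial levels was not tested.

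The adhesion and junction genes of most vessels fell by 0.75 to 2.12 on the log2 scale. Cdh5 (VE-cadherin, chr8:104101625-104144511, GRCm38) was at 292, 291 and 263 CPM in Chow, 90.0, 87.8 and 89.0 CPM in HFD, 94.8, 344 and 129 CPM in HFD Vehicle, and 102, 194 and 168 CPM in HFD PCN. The HFD libraries lay close together, far below all of Chow, and their mean was 31.6% of the Chow mean. In edgeR's test the log2 fold change of Cdh5 was -1.70 ± 0.10 (SE; adjusted p = 1.2e-05). Pecam1, the adhesion molecule CD31, was at 283, 270.5 and 278 CPM in Chow, 142, 138 and 150 CPM in HFD, 141, 264 and 142 CPM in HFD Vehicle, and 142, 251 and 233 CPM in HFD PCN. Its HFD and Chow libraries did not overlap either, but it fell less, by 0.99 ± 0.10 on the log2 scale. The tight junction gene Cldn5 fell by 1.43, the junctional immunoglobulin genes Esam by 1.67 and Icam2 by 0.75 (the latter the smallest fall among genes of most vessels), and the junctional phosphatase Ptprb by 2.12. Esam and Icam2 were at 32.2% and 60.8% of their Chow means.

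Of the angiopoietin receptor pair, Tie1 fell more than Tek. Tie1, the receptor with no ligand of its own that modulates Tek, was at 87.4, 125 and 116 CPM in Chow, 36.0, 32.1 and 38.4 CPM in HFD, 42.6, 155 and 50.9 CPM in HFD Vehicle, and 42.7, 77.2 and 73.1 CPM in HFD PCN. Tek (TIE2), which binds the angiopoietins, was at 82.6, 93.7 and 94.6 CPM in Chow, 37.5, 40.5 and 36.1 CPM in HFD, 46.8, 89.4 and 41.9 CPM in HFD Vehicle, and 47.9, 78.3 and 69.9 CPM in HFD PCN. In HFD both were below every Chow library. The log2 fold changes were -1.66 ± 0.16 for Tie1 and -1.28 ± 0.11 for Tek, and the difference between them was not tested. Their ligands moved the other way: Angpt1, the agonist made by mural and other stromal cells, rose by 0.72 ± 0.20, and Angpt2, the context-dependent antagonist released by endothelium, rose by 2.07 ± 0.23 (edgeR, adjusted p = 0.00016). Angpt2 was at 14.5, 10.6 and 6.50 CPM in Chow and 42.7, 46.0 and 49.3 CPM in HFD. The ratio of Angpt2 to Tek in CPM was therefore 0.119 ± 0.0539 (SD, n = 3) in Chow and 1.21 ± 0.132 in HFD.

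Genes of signalling, vessel guidance and matrix fell by 1.10 to 2.46 on the log2 scale. Nos3, the endothelial nitric oxide synthase, fell by 2.46 ± 0.26 on the log2 scale, with 69.9 to 131 CPM in Chow and 15.1 to 18.5 CPM in HFD. Robo4, a guidance receptor that stabilises vessels, fell by 2.35 ± 0.11, Rasip1, a Ras-interacting protein needed for vessel lumens, by 2.27 ± 0.21, and Egfl7, a secreted endothelial protein, by 2.18 ± 0.20. Ushbp1 fell by 2.20 ± 0.15. For these 5 genes the HFD mean was 18.6 to 22.7% of the Chow mean. Eng (endoglin), a co-receptor of the BMP pathway, fell by 1.83, and the matrix protein gene Mmrn2 by 1.72. The adrenomedullin co-receptor Ramp2 fell by 1.10, the sphingosine phosphate receptor S1pr1 by 1.24, and Ecscr by 1.24. Myct1 fell by 1.55 ± 0.52, but its Chow libraries ranged from 3.88 to 14.2 CPM, and without Chow 17 the log2 fold change was -0.63 (adjusted p = 0.11). In Nos3, Rasip1, Ramp2 and Egfl7, 32.3, 42.9, 33.4 and 11.2% of exon bases are shared with another gene, and no source used here says whether counting used strand, so these 4 values could hold reads of the neighbour.

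Transcription factors of the endothelial programme fell as well. Sox7 had the largest fall of the set: it was at 14.6, 28.7 and 60.9 CPM in Chow and 2.85, 2.22 and 1.92 CPM in HFD, and its log2 fold change was -3.86 ± 0.50 (edgeR, adjusted p = 0.00033). Its Chow libraries spread widely, yet the lowest of them lay above all of HFD. The related factors fell less, Sox17 by 1.84 ± 0.31 and Sox18 by 1.60 ± 0.25. Erg fell by 1.12 ± 0.16 and Tal1, a factor shared with blood progenitors, by 0.89 ± 0.21. Fli1, another ETS factor that blood cells also express and no member of the set, did not pass (-0.19 ± 0.11, adjusted p = 0.17 in edgeR), and Ets1 fell by 1.15 ± 0.12.

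Cd93 went against the rest. It encodes a receptor carried by endothelium, and also by monocytes, macrophages and other myeloid cells. It was at 276, 207 and 193 CPM in Chow, 400, 427 and 380 CPM in HFD, 353, 160 and 330 CPM in HFD Vehicle, and 360, 271 and 358 CPM in HFD PCN. Every HFD library was above every Chow library, and HFD Vehicle 50, with few macrophage counts, had the lowest value of the 12. The log2 fold change was 0.80 ± 0.15 in edgeR's test (adjusted p = 0.0023). Of the summed counts of the genes of most vessels, Cd93 made up 5.57 to 8.76% in Chow and 28.6 to 31.9% in HFD. Per kilobase of exon, its level ranked 10 of 35 in Chow (33.7 ± 6.67 CPM per kb, SD, n = 3) and 1 of 35 in HFD (60.2 ± 3.53 CPM per kb). In Chow it was within the spread of the next gene, and in HFD it was apart from it. The part of macrophages in the Cd93 level was not tested. Platelets carry Pecam1 and Vwf as well: of 7 platelet genes 4 were tested and 2 rose (Pf4, Treml1), while the defining Gp9, Gp1ba and Gp1bb were at 0 to 0.396 CPM in all 12 libraries. The summed platelet list was at 18.0 to 21.9 CPM in Chow and 43.8 to 58.6 CPM in HFD, most of it Pf4, which macrophages also make.

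**Figure D2:**
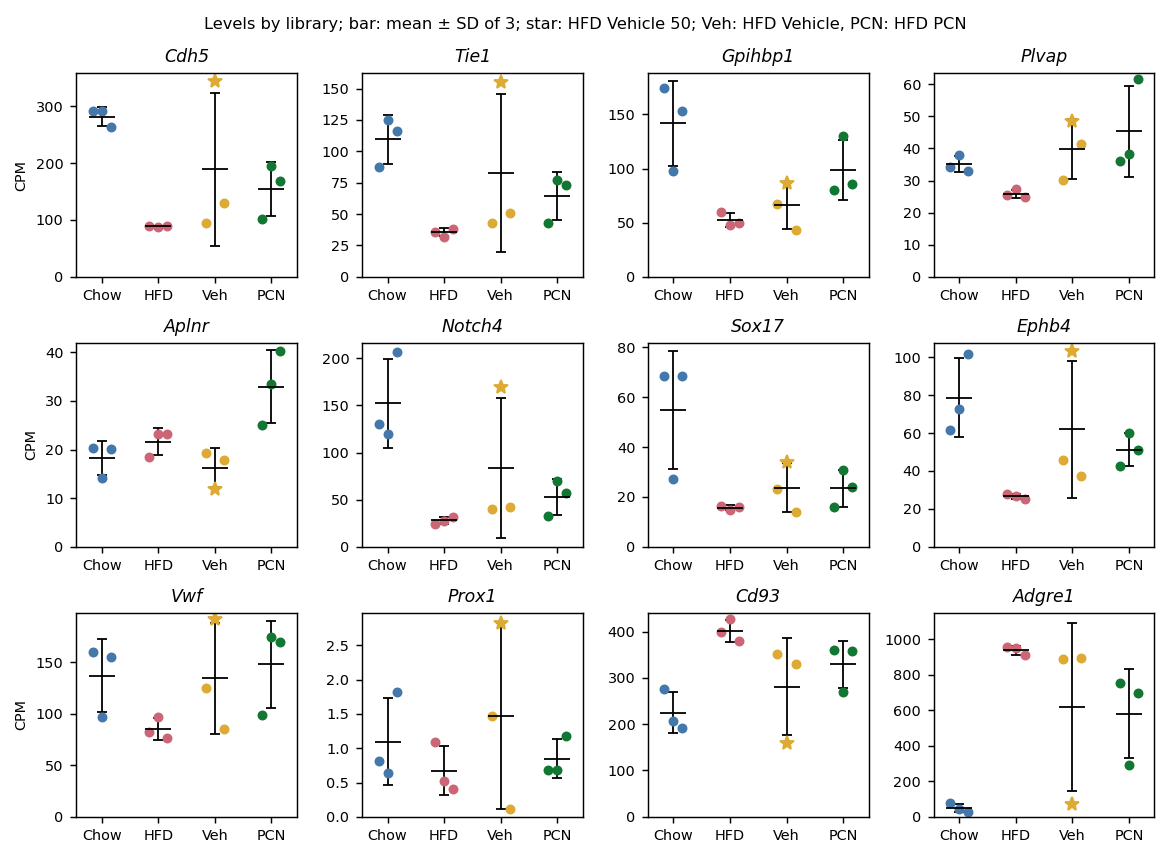
Panels give the CPM of 11 endothelial genes and of the macrophage gene Adgre1 in each library by group, with the mean and SD of 3 libraries. The star marks HFD Vehicle 50, which lies at or above Chow for Cdh5, Tie1, Ephb4, Plvap, Vwf and Prox1. It lies within Chow for Notch4, Sox17 and Adgre1, and below all Chow libraries for Gpihbp1, Aplnr and Cd93. Cd93 is the one endothelial panel in which all HFD libraries lie above Chow.

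Capillary genes fell by very different amounts. Gpihbp1 (chr15:75596628-75599481) was at 174, 97.9 and 153 CPM in Chow, 60.0, 47.8 and 49.8 CPM in HFD, 67.6, 86.7 and 43.5 CPM in HFD Vehicle, and 79.9, 130.5 and 86.0 CPM in HFD PCN. It fell by 1.46 ± 0.20 on the log2 scale, to 37.1% of the Chow mean, and all HFD libraries lay below Chow. Plvap, which forms the diaphragms of fenestrated and caveolar endothelium, was at 34.2, 38.0 and 33.1 CPM in Chow, 25.3, 27.4 and 24.9 CPM in HFD, 30.0, 48.5 and 41.3 CPM in HFD Vehicle, and 36.1, 38.3 and 61.6 CPM in HFD PCN. Its fall was 0.48 ± 0.11 (edgeR, adjusted p = 0.0054), the smallest of the 32, and the HFD mean was 73.8% of that of Chow. Lpl, the enzyme that Gpihbp1 carries and fat cells make, did not pass (-0.42 ± 0.22, adjusted p = 0.14 in edgeR).

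The genes shared by capillaries and veins divided. Emcn (endomucin) was at 33.3, 34.3 and 27.7 CPM in Chow, 17.6, 16.6 and 17.5 CPM in HFD, 17.2, 30.8 and 14.3 CPM in HFD Vehicle, and 17.8, 24.0 and 22.6 CPM in HFD PCN. It fell by 0.92 ± 0.12 with diet, and HFD and Chow did not overlap. Aplnr, the receptor of the peptide apelin, was at 20.4, 14.2 and 20.2 CPM in Chow, 18.4, 23.1 and 23.3 CPM in HFD, 19.3, 11.8 and 17.8 CPM in HFD Vehicle, and 25.1, 33.4 and 40.2 CPM in HFD PCN. Chow and HFD overlapped for Aplnr, its log2 fold change was 0.21 ± 0.17 (edgeR, adjusted p = 0.30), and without Chow 17 it was 0.07. Its ligand Apln fell by 1.73 ± 0.27 (adjusted p = 0.00075), from 6.96 to 9.84 CPM in Chow to 1.88 to 3.50 CPM in HFD.

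Among other capillary genes, all 8 fell, with a median log2 fold change of -2.03. Flt1 and Kdr are the receptors of VEGF, and Car4 and Rgcc are marks of capillary endothelium. Flt1 was at 271, 305 and 279 CPM in Chow and 58.2, 61.6 and 63.0 CPM in HFD, a fall of 2.26 ± 0.11. Kdr fell by 2.32 ± 0.12, Cd300lg, an endothelial glycoprotein, by 2.13 ± 0.13, and Car4 by 1.92 ± 0.12. Tcf15, a transcription factor of capillary endothelium in fat and heart, had the largest fall of the 8 (-2.95 ± 0.30), named after its value was seen.

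All 4 arterial genes fell. Notch4 was at 131, 119 and 206 CPM in Chow, 24.5, 27.6 and 31.8 CPM in HFD, 39.9, 169 and 41.8 CPM in HFD Vehicle, and 32.5, 69.5 and 57.1 CPM in HFD PCN. Its fall of 2.48 ± 0.22 was second to that of Sox7 in the set. Dll4, a Notch ligand of arterial and sprouting cells, was at 28.6, 28.7 and 32.4 CPM in Chow, 8.26, 8.24 and 11.1 CPM in HFD, 11.1, 61.0 and 11.8 CPM in HFD Vehicle, and 9.54, 36.0 and 27.9 CPM in HFD PCN. Dll4 fell by 1.74 ± 0.15 with diet, and its HFD PCN values ran from within the HFD range to above Chow. Efnb2 was at 33.5, 25.4 and 23.7 CPM in Chow, 8.73, 9.74 and 11.2 CPM in HFD, 14.3, 36.3 and 10.02 CPM in HFD Vehicle, and 11.7, 26.6 and 22.7 CPM in HFD PCN. It fell by 1.52 ± 0.16, with no overlap between HFD and Chow. Sox17, which drives arterial identity, was at 68.4, 27.4 and 68.4 CPM in Chow, 16.5, 14.6 and 15.8 CPM in HFD, 23.1, 33.9 and 14.1 CPM in HFD Vehicle, and 15.8, 30.7 and 23.8 CPM in HFD PCN. Chow 17 was low for Sox17, though still above HFD, and 16.8% of the exon bases of Sox17 are shared with another gene. Of 11 other arterial genes, 6 fell and 5 did not pass, and the median of the 11 was -0.79 on the log2 scale. The 4 with the smallest p were the semaphorin gene Sema3g (-1.71 ± 0.09), the Notch target Hey2 (-2.26 ± 0.30), the gap junction gene Gja5 (-1.51 ± 0.23) and the matrix gene Fbln5 (-0.79 ± 0.22). Fbln5 lost its call without HFD 4 (adjusted p = 0.057) or HFD 38 (adjusted p = 0.058). Bmx and Acvrl1 lost theirs without any 1 of HFD 4, 30 and 38, Bmx also without Chow 19, and Acvrl1 also without Chow 17.

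Of the venous and large vessel genes, Ephb4 fell more than Vwf. Ephb4 was at 61.4, 72.6 and 102 CPM in Chow, 27.7, 27.0 and 25.3 CPM in HFD, 45.5, 103 and 37.2 CPM in HFD Vehicle, and 42.4, 59.8 and 51.1 CPM in HFD PCN, a fall of 1.60 ± 0.19. Vwf, the platelet-binding glycoprotein stored in endothelial granules, was at 160, 96.4 and 155 CPM in Chow, 82.5, 97.1 and 76.5 CPM in HFD, 125, 192 and 85.6 CPM in HFD Vehicle, and 99.1, 175 and 170 CPM in HFD PCN. Chow 17 and HFD 30 overlapped for Vwf. Its log2 fold change was -0.72 ± 0.19 (edgeR, adjusted p = 0.013), with adjusted p = 0.053 without HFD 4 and 0.059 without HFD 38. The ratio of Ephb4 to its ligand Efnb2 in CPM was 3.00 ± 1.24 (SD, n = 3) in Chow and 2.73 ± 0.459 in HFD, a difference within the spread of the Chow libraries. The ratio of Ephb4 to the arterial receptor Notch4 was 0.470, 0.608 and 0.494 in Chow and 1.13, 0.977 and 0.796 in HFD, with no overlap between the groups. This ratio is a description, with no test. Of 6 other venous genes 5 were tested. The venous fate factor Nr2f2 fell by 1.46 ± 0.24 and the leukocyte adhesion gene Selp by 1.48 ± 0.40, while Vcam1, another adhesion gene, rose by 1.12 ± 0.21 and Lrg1 by 0.57 ± 0.16. Macrophages and mesothelium also make Vcam1, and other cells Lrg1, and the part of such cells was not tested.

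Prox1 sat at the floor of the data. Its counts were 11, 8 and 16 in Chow, 30, 15 and 7 reads in HFD, 38, 31 and 2 reads in HFD Vehicle, and 19, 13 and 21 reads in HFD PCN, or 0.107 to 2.83 CPM. Groups overlapped, and the log2 fold change with diet was -0.62 ± 0.52 (edgeR, adjusted p = 0.33), -0.09 without Chow 19 and -1.16 without HFD 4. With these counts and this spread between libraries, no difference in CPM was called. How large a difference could have been called was not tested. Of 8 other lymphatic genes, Flt4 (VEGFR3), which blood vessels also express, fell by 2.41 ± 0.17. Pdpn rose by 2.79 ± 0.31, Nrp2 by 1.17 ± 0.11 and Stab2 by 1.50 ± 0.24, and the other 4, Lyve1 among them (-0.62 ± 0.24, adjusted p = 0.054), did not pass. Reln and Mmrn1, also among those 4, spread widely within HFD at higher counts than Prox1. In HFD 4, 30 and 38 Reln had 255, 113 and 9 reads and Mmrn1 194, 95 and 16 reads. Pdpn, Nrp2 and Lyve1 are also genes of macrophages or stromal cells, whose part was not tested. Ccl21a has near-identical copies, so its counts are uncertain.

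**Figure D3:**
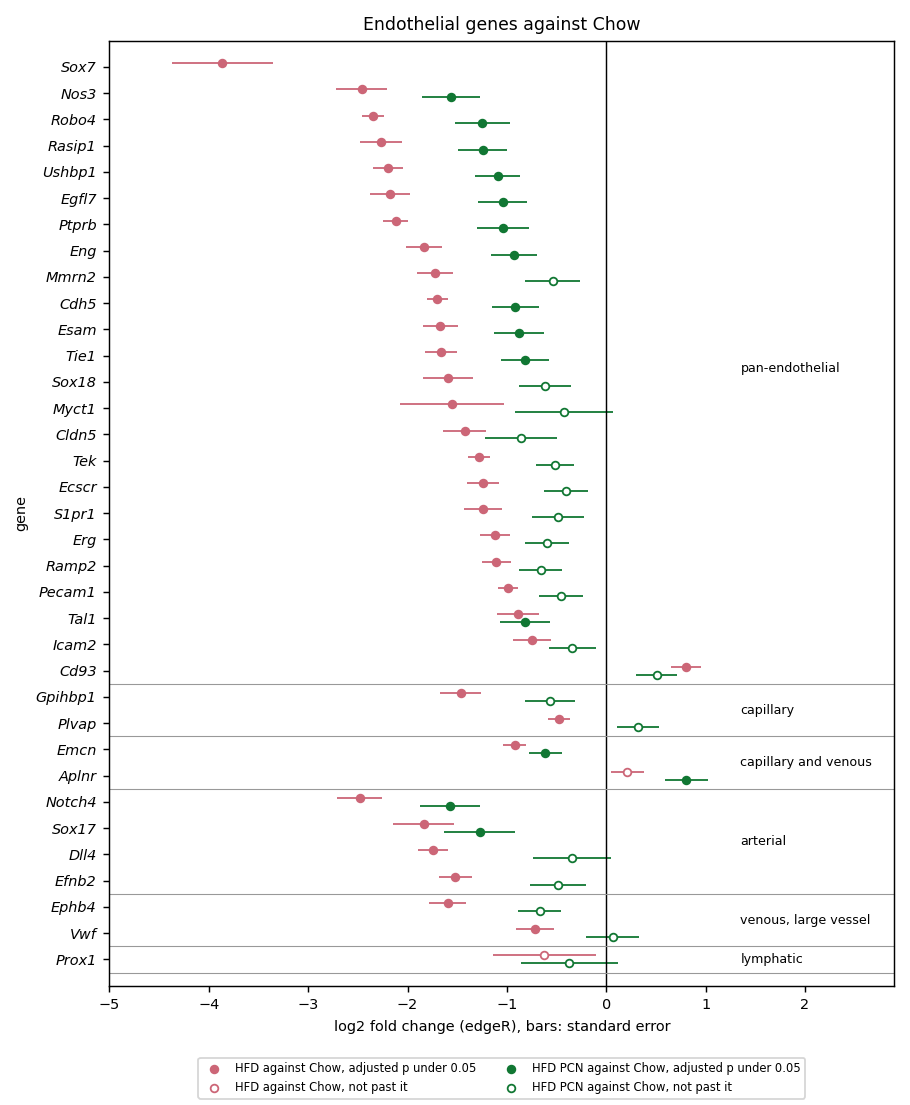
Points give the log2 fold change of each gene against Chow with its standard error, for HFD (red) and HFD PCN (green). Filled points passed adjusted p = 0.05. The HFD points lie left of zero for 33 of 35 genes, and the HFD PCN points lie nearer to zero for all genes in both but Aplnr. The 2 comparisons share the Chow libraries, and the difference between them was not tested.

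To ask which vessel genes fell more or less than a set of endothelial genes, counts were set against the summed counts of 10. These genes of most vessels were Cdh5, Tie1, Tek, Erg, Robo4, Ptprb, Mmrn2, Myct1, Ecscr and Esam. The other 25 genes were tested with edgeR on that scale. The sum is weighted by level: Ptprb had a mean of 734 CPM in Chow, of a sum of 1612 to 1725 CPM. Ptprb went to 174 CPM in HFD, while Tek went from 90.3 to 38.0 CPM and Erg from 22.5 to 10.6 CPM. A gene higher than the sum therefore need not have fallen less than each gene in it. On it the median of all genes tested was a log2 difference of 1.83, with 85.9% of them called higher and 2.17% lower, since most genes of the tissue did not fall as the endothelial ones did. Of the 25 genes, 11 were higher, 4 were lower and 10 did not pass, with a median of 0.40. Higher here means only higher than the reference: it covers genes whose CPM fell less, such as Pecam1, as well as Aplnr, which did not pass in CPM, and Cd93, which rose.

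Of the vessel type genes, Plvap, Emcn and Vwf fell less than the reference, and Aplnr, which did not pass in CPM, was higher than it, under each reference and without each library. Plvap was higher by 1.39 ± 0.12 (edgeR, adjusted p = 4.1e-06), Emcn by 0.94 ± 0.13, Aplnr by 2.07 ± 0.17 and Vwf by 1.15 ± 0.20. As ratios to Cdh5 in CPM, Plvap was at 0.117, 0.131 and 0.126 in Chow and 0.282, 0.312 and 0.280 in HFD, and Aplnr at 0.0698, 0.0487 and 0.0767 in Chow and 0.205, 0.263 and 0.262 in HFD. Neither ratio overlapped between the groups. With the sum of all genes of most vessels as the reference, Plvap was higher by 0.83, Emcn by 0.38 and Vwf by 0.60, and that sum includes Cd93.

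Gpihbp1 (0.40 ± 0.21), Sox17 (0.02 ± 0.31), Dll4 (0.12 ± 0.15), Efnb2 (0.34 ± 0.18) and Ephb4 (0.28 ± 0.16) did not pass relative to the reference. For these 5 the sign depended on the reference, Dll4 was lower (-0.43, adjusted p = 0.025) with all genes of most vessels as the reference, and leaving out 1 Chow library gave a call for 4 of them: Gpihbp1 without Chow 8 (0.60), Efnb2 without Chow 8 (0.53), Ephb4 without Chow 19 (0.47) and Sox17 without Chow 17 (-0.30). Notch4 was lower by 0.61 ± 0.19 (edgeR, adjusted p = 0.015), lower by 0.53 without HFD 4 (adjusted p = 0.063), and lower by 0.37 without Chow 19 (adjusted p = 0.024). Prox1 was higher by 1.23 ± 0.51 (adjusted p = 0.046), a call that was lost without HFD 4 (0.67), HFD 30 (1.39), Chow 8 (1.10) or Chow 17 (0.98), and with each other reference.

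Among genes of most vessels outside the reference, Cd93 (2.66 ± 0.19), Icam2 (1.12 ± 0.19), Tal1 (0.98 ± 0.21), Pecam1 (0.88 ± 0.11), Ramp2 (0.76 ± 0.15) and S1pr1 (0.62 ± 0.20) were higher than the reference. S1pr1 lost its call with Cdh5 alone as the reference (0.45, adjusted p = 0.063). Sox7 (-1.98 ± 0.46), Nos3 (-0.58 ± 0.23) and Ushbp1 (-0.33 ± 0.13) were lower. The calls of Nos3 and Ushbp1 were lost without any 1 of HFD 4, HFD 30, HFD 38 and Chow 19. Of the other capillary genes, Tcf15 (-1.08 ± 0.29), Kdr (-0.46 ± 0.13) and Flt1 (-0.40 ± 0.11) were lower than the reference, with Kdr losing its call without HFD 38 (adjusted p = 0.054), and 5 of 8 did not pass. Of 11 other arterial genes, 7 were higher and none lower, where 85.9% of all genes tested were called higher. Of 5 tested other venous genes 3 were higher and none lower, and of 8 other lymphatic genes 5 were higher and 1 lower. Leukocytes, platelets or megakaryocytes also express Pecam1, Icam2, Tal1 and S1pr1, and their part was not tested.

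**Figure D4:**
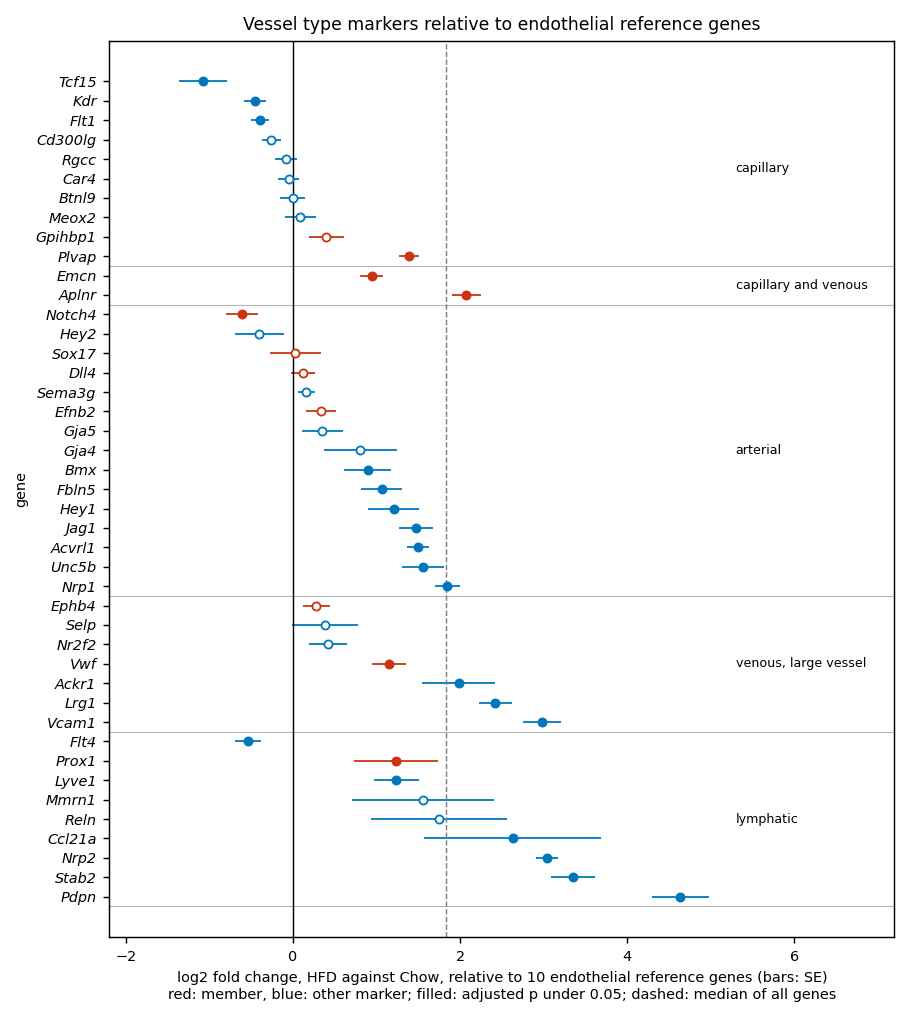
Points give the log2 fold change of HFD against Chow after scaling to 10 endothelial genes, with its standard error, for members of the set (red) and other markers (blue) by vessel type. The dashed line is the median of all genes, 1.83. Of the capillary genes, Plvap lies right of zero, Gpihbp1 is at 0.40 and did not pass, and the others lie near zero or left of zero. Emcn, Aplnr and Vwf lie right of zero, and so do most of the other arterial, venous and lymphatic markers. Plvap, Emcn and Vwf lie left of the dashed line.

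Of 13 listed partners of the endothelial receptors, 6 fell with diet, 4 rose and 3 did not pass. Across all genes tested, 30.0% were called lower and 29.8% higher, so calls in both directions are not particular to the partners. Heg1, which anchors endothelial junctions, fell by 1.24 ± 0.13, Jup (plakoglobin), a partner of cadherins, by 1.57 ± 0.13, Spns2, the transporter that exports sphingosine 1-phosphate, by 1.67 ± 0.15 and Notch1 by 1.86 ± 0.16. Calcrl, which needs Ramp2 to form the adrenomedullin receptor, rose by 1.60 ± 0.11, from 26.6, 31.3 and 30.1 CPM in Chow to 89.8, 93.8 and 89.2 CPM in HFD. Sphk1, which makes sphingosine 1-phosphate, rose by 2.04 ± 0.27. So the receptor partner Ramp2 fell while Calcrl rose in the same 3 libraries, and Calcrl is also expressed outside endothelium. Of 15 other endothelial genes, 10 fell, led by p by Cyyr1 (-2.93 ± 0.19), She (-1.86 ± 0.14) and Palmd (-2.11 ± 0.16), and 2 rose, Lmo2 (2.06 ± 0.12), which myeloid cells also express, and Cd34 (0.72 ± 0.20), which marks fat progenitors as well. Of 11 tested genes of mural cells, which wrap small vessels, 6 fell, among them Abcc9 (-1.47 ± 0.12), Myh11 (-1.25 ± 0.14), Rgs5 (-1.37 ± 0.16) and Notch3 (-1.37 ± 0.17), and 5 did not pass.

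In the libraries of mice that had the high-fat diet and PCN, the set was lower than in Chow by a smaller amount. Of 34 genes tested, 14 fell, 1 rose (Aplnr) and 19 did not pass, and across all 16188 genes 11.6% were called lower and 15.7% higher. The median log2 fold change was -0.61, against -0.03 for all genes. This comparison uses the same Chow libraries as HFD against Chow, and the difference between these comparisons was not tested. The HFD PCN mice also differed from the HFD mice by the injections. Of the other lists, 8 of 8 macrophage genes and 5 of 5 mesothelial genes rose and 4 of 7 adipocyte genes fell, and their part in the endothelial levels was not tested. The 14 that fell were Cdh5, Tie1, Egfl7, Esam, Ptprb, Eng, Robo4, Nos3, Ushbp1, Rasip1, Tal1, Emcn, Sox17 and Notch4. Notch4 (-1.57 ± 0.31, edgeR, adjusted p = 0.0084), Nos3 (-1.56 ± 0.29), Sox17 (-1.27 ± 0.36), Robo4 (-1.25 ± 0.28), Rasip1 (-1.24 ± 0.25) and Ushbp1 (-1.09 ± 0.23) fell most. Egfl7 and Ptprb fell by 1.04 each, Eng by 0.93, Cdh5 by 0.91, Esam by 0.88, Tie1 by 0.82, Tal1 by 0.82 and Emcn by 0.61. Gpihbp1 (-0.57 ± 0.26), Ephb4 (-0.67 ± 0.22), Vwf (0.06 ± 0.26) and Prox1 (-0.37 ± 0.48) did not pass.

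The 3 HFD PCN libraries differed from each other: PCN 5 was the lowest of them for Cdh5, Tie1, Dll4 and Notch4, and nearer to HFD than to Chow, and PCN 11 was the highest. The calls followed single libraries. Without Chow 17, Chow 19, PCN 5 or PCN 27, 7, 5, 6 and 7 of the 34 genes fell. Across all genes tested, 895 of 16840, 758 of 16866, 718 of 16241 and 821 of 16260 were called lower in these fits. Without PCN 11, 20 of the 34 fell, beside 1934 of 16320 genes tested. In a fit over all 12 libraries 1 of the 34 fell (Nos3), beside 826 of 17304 genes tested, which is not a larger share than among all genes. Aplnr was higher in all 3 HFD PCN libraries than in any Chow library (0.81 ± 0.21, adjusted p = 0.025 in edgeR), and its call was lost without Chow 17 (0.66), Chow 19 (0.90) or PCN 27 (0.64). Of the 8 other capillary genes 7 fell, and the median log2 fold change was -0.94. That count was 4 without Chow 17, 3 without Chow 19, PCN 5 or PCN 27, and 1 (Car4) in the fit over all 12 libraries. Adm, which encodes the adrenomedullin that Ramp2 and Calcrl receive, was at 14.5, 11.5 and 10.03 CPM in Chow, 10.03, 11.4 and 13.03 CPM in HFD, 25.7, 12.2 and 22.4 CPM in HFD Vehicle, and 32.1, 30.3 and 50.5 CPM in HFD PCN. It rose by 1.60 ± 0.24 in HFD PCN against Chow (edgeR, adjusted p = 0.0036) and did not pass with diet alone (-0.11 ± 0.17), and the difference between these was not tested. Relative to the 10 reference genes, 54.4% of all genes were called higher and 1.40% lower. On that scale Cd93 (1.55 ± 0.38), Plvap (1.31 ± 0.37), Aplnr (1.77 ± 0.37) and Vwf (0.99 ± 0.37) were higher among 24 genes of the set, none was lower, and Vwf lost its call without Chow 17, Chow 19 or PCN 27.

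PCN against vehicle showed no called change in the set. With edgeR, 0 of 16563 genes (0%) and 0 of 34 endothelial genes passed, while 281 genes and 1 endothelial gene, Aplnr, had an unadjusted p under 0.05. DESeq2 called 1 gene and limma-voom 0, with no endothelial gene in either. The HFD Vehicle group holds the library that stood apart, and the standard errors were wide: Cdh5 had a log2 fold change of -0.29 ± 0.52, Gpihbp1 0.59 ± 0.31, Sox17 -0.01 ± 0.38, Ephb4 -0.28 ± 0.40, Vwf 0.14 ± 0.36 and Prox1 -0.75 ± 0.90. Aplnr was at 1.01 ± 0.26 (unadjusted p = 0.0071, adjusted p = 1.0), and all 3 HFD PCN libraries were above all 3 of HFD Vehicle. Without HFD Vehicle 50, edgeR again called 0 genes, the median of the 34 went from -0.01 to 0.47, and 32 of the 34 log2 fold changes were above zero, with 5 at an unadjusted p under 0.05. In that fit Cdh5 was at 0.46 ± 0.29, Gpihbp1 at 0.83 ± 0.28, Sox17 at 0.32 ± 0.32, Ephb4 at 0.30 ± 0.18, Vwf at 0.49 ± 0.29, Prox1 at 0.02 ± 0.83 and Aplnr at 0.82 ± 0.22 (edgeR, adjusted p = 0.80 or higher). The signs of Cdh5, Sox17, Ephb4 and Prox1 thus changed with this library.

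Vehicle injections on the high-fat diet were compared with the diet alone in the same way. With edgeR, 0 of 16781 genes (0%) were called and 0 of 34 endothelial genes, with 1639 genes and 13 endothelial genes at an unadjusted p under 0.05. DESeq2 called 91 genes and limma-voom 0, and neither called an endothelial gene. The median log2 fold change of the 34 was 0.89, with Cdh5 at 1.11 ± 0.48, Gpihbp1 at 0.35 ± 0.27, Sox17 at 0.62 ± 0.32, Ephb4 at 1.24 ± 0.40, Vwf at 0.67 ± 0.31 and Prox1 at 1.06 ± 0.94. Without HFD Vehicle 50 the median was 0.31, and edgeR called 172 genes and 4 endothelial genes, all higher in HFD Vehicle: Ptprb (0.64), Rasip1 (0.75), Egfl7 (0.63) and Ephb4 (0.64). Cdh5 was then at 0.33 ± 0.13, Gpihbp1 at 0.08 ± 0.18, Sox17 at 0.26 ± 0.19, Vwf at 0.31 ± 0.17 and Prox1 at 0.28 ± 0.78, and none of these 5 passed. In that fit DESeq2 called 9 endothelial genes and limma-voom 3, all higher.

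**Figure D5:**
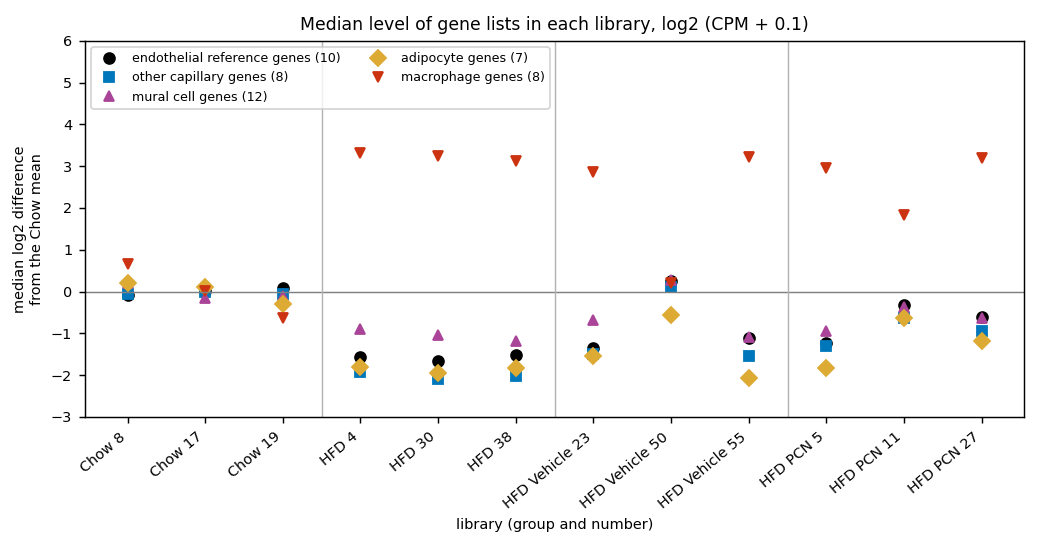
Points give, for each library, the median over the genes of a list of the log2 difference from the Chow mean (log2 of CPM + 0.1). In HFD the 10 endothelial reference genes lie at -1.67 to -1.53 and macrophage genes at 3.12 to 3.33, and in HFD Vehicle 50 they lie at 0.24 and 0.20.

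Across the libraries, endothelial and adipocyte genes were low where macrophage genes were high, with PCN 27 the least so. The median of the endothelial reference genes was -1.34 and -1.11 (log2 difference from Chow) in HFD Vehicle 23 and 55, 0.24 in HFD Vehicle 50, and -1.23, -0.32 and -0.60 in HFD PCN 5, 11 and 27. For adipocyte genes it was -1.53 and -2.07, -0.56, and -1.83, -0.62 and -1.17 in the same libraries, and for macrophage genes 2.85 and 3.21, 0.20, and 2.96, 1.84 and 3.20. PCN 27 had macrophage genes at the level of HFD with endothelial genes between HFD and Chow.

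Levels were set against each other per kilobase of exon. In Chow, Cldn5 (98.9 ± 32.6 CPM per kb, SD, n = 3), Cdh5 (67.1 ± 3.89), Esam (57.9 ± 13.4), Gpihbp1 (55.5 ± 15.4) and Ptprb (55.1 ± 2.57) were the 5 highest, and each was within the spread of the next. Prox1 was last at 0.131 ± 0.0761, apart from Tal1 above it at 2.43 ± 0.606. In HFD the order began with Cd93, Cldn5 (37.7 ± 0.241), S1pr1 (23.2 ± 0.846), Pecam1 (23.0 ± 0.989) and Cdh5 (21.2 ± 0.255). Ptprb went from rank 5 to 9, Plvap from 19 to 8, Aplnr from 31 to 16 and Notch4 from 18 to 26 of 35. In Chow each of these genes was within the spread of the next, so its rank there is uncertain. In HFD Plvap, Aplnr and Notch4 were also within the spread of the next, which for Plvap was Ptprb, so the HFD ranks are uncertain too. Sox7 was set on the scale of the Chow and HFD libraries alone.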

How the data were processed

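Gene counts of 12 RNA-seq libraries in 4 groups of 3 were used. The authors deposited whole-number counts of reads per gene in 2 tables, and HISAT2, HTSeq and DESeq2 with GRCm38 (mm10) are named in the submitters' processing notes, with no versions. Groups come from the labels. The deposited counts went unchanged into edgeR 4.0.16 under R 4.3.3 (quasi-likelihood test, TMM scaling, default filter, Benjamini-Hochberg adjustment at 0.05), each comparison on its own 6 libraries. Comparisons across the 2 tables used the 28008 genes in both. For the relative scale, library sizes were the summed counts of 10 reference genes, without TMM, and those genes were not read. Levels are CPM with TMM over 12 libraries (Sox7: 6). Exon lengths and overlaps come from GENCODE vM21, in which 35 of 35 members had the same start and end, and promoters from RefSeq. Replicate pairs differed beyond sampling noise (chi-square per degree of freedom 7.53 to 259).

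The members and lists were chosen with earlier results of these data known. The rule for named genes was: all members in HFD against Chow; per-library values for 15 members and for any that did not pass or went the other way; elsewhere members that passed and 6 fixed ones; of each other list up to 4 passing genes with the smallest p, or up to 2 where none passed, and vessel type genes passing against their list's median. Named outside it, after their values were seen, were Angpt1, Angpt2, Apln, Adm, Lpl, Sphk1, Heg1, Ets1, Fli1, Cd34, Tcf15, Bmx, Acvrl1, Lyve1, Reln, Mmrn1 and the mesothelial genes in HFD PCN against Chow. Alternatives were DESeq2 1.42.0, limma-voom (limma 3.58.1), other scalings, filters and references, 1 fit over 12 libraries, no mitochondrial genes, and leaving out each library; fits without HFD Vehicle 50 in DESeq2 and limma-voom and a reference without Cd93 were added after seeing the data. The fits were checked on simulated data.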

Additional observations from a re-analysis of the deposited data

How the results depend on the processing

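No paired analysis was possible because the groups share no replicate numbers. HFD against Chow had 27 to 32 members lower and 1 higher under each alternative, with the median of the members from -1.62 to -1.38 over the left-out libraries. HFD PCN against Chow depended on the libraries and the fit: leaving out 1 library gave 2221 to 4971 genes called, 5 to 20 members lower and 0 to 2 higher, with Vwf from -0.13 to 0.28 and Prox1 from -0.66 to 0.17. One fit over 12 libraries gave 2774 genes and 1 member lower.

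For PCN against vehicle, DESeq2 called 1 gene, and 44 without HFD Vehicle 50. The member median was 0.17 in limma-voom and 0.042 without a filter, and without HFD Vehicle 50 it was 0.47 in DESeq2 and 0.48 in limma-voom. In those last fits Cdh5 was 0.46 and 0.44, Ephb4 0.30 and 0.30, Prox1 0.071 and 0.73, and Sox17 0.32 and 0.27. With all libraries, limma-voom gave Prox1 0.10 and Sox17 0.049, and no filter gave Sox17 0.035. Leaving out 1 library moved the median from -0.31 to 0.47, Cdh5 from -0.60 to 0.46, Ephb4 from -0.56 to 0.30, Prox1 from -1.33 to 0.021, Sox17 from -0.30 to 0.32 and Vwf from -0.11 to 0.49.

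For vehicle against HFD, DESeq2 called 91 genes. Without HFD Vehicle 50, DESeq2 called 708 genes and 9 members higher with a median of 0.30, and limma-voom 158 genes and 3 members with a median of 0.30 and Prox1 at -0.39. Left-out libraries gave 0 to 172 genes, 0 to 4 members higher and a median of 0.31 to 1.11.

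Relative to the reference in HFD against Chow, the median of the vessel type members was 0.23 with Cdh5 alone, 0.26 with all genes of most vessels but Cd93, and -0.15 with all of them, where 2 were lower. In that order Sox17 was -0.15, -0.10 and -0.52, and Dll4 -0.048, -0.022 and -0.43. With all of them Gpihbp1 was -0.15, Efnb2 -0.22 and Ephb4 -0.27, and with Cdh5 alone Eng was -0.14. Left-out libraries gave 0 to 2 vessel type members lower, a median of 0.28 to 0.60 for these members, Dll4 from -0.015 to 0.19, Eng from -0.12 to 0.14 and Sox17 from -0.30 to 0.26. In HFD PCN against Chow 5887 to 11117 genes were called on this scale, and all genes of most vessels as the reference gave 1 vessel type member lower. The cause of these changes was not tested. Counts limit Prox1 most, with 2 to 38 reads a library.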

Other observations

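Mesothelial cells cover the surface of the fat pad, and all 5 of their listed genes rose in HFD PCN against Chow with edgeR, from Upk1b (3.21 ± 0.61), Lrrn4 (2.42 ± 0.38) and Upk3b (2.36 ± 0.73) to Msln (1.99 ± 0.50) and Wt1 (1.38 ± 0.30). With diet alone 0 of the 5 passed, at an unadjusted p under 0.05 also 0, and the difference between the comparisons was not tested. Upk3b lost its call without PCN 5, PCN 11, Chow 17 or Chow 19, in DESeq2 (adjusted p = 0.114) and in limma-voom (adjusted p = 0.056), Msln without PCN 5 and Wt1 without Chow 17. In the fit over all 12 libraries Upk3b, Msln and Lrrn4 lost theirs (adjusted p = 0.14, 0.11 and 0.056). The summed level of the 5 was 8.89 to 20.2 CPM in Chow, 6.89 to 25.8 CPM in HFD and 46.7 to 85.8 CPM in HFD PCN. HFD Vehicle 50 was at 50.7 CPM, within the HFD PCN range, and HFD Vehicle 23 and 55 at 18.5 and 9.17 CPM. Lrrn4 was at 3.06, 2.16 and 1.71 CPM in Chow, 3.51, 2.73 and 0.467 CPM in HFD, 1.90, 5.58 and 0.427 CPM in HFD Vehicle, and 19.3, 10.8 and 8.40 CPM in HFD PCN. The HFD PCN libraries lay above the other 9 for this gene. Against HFD Vehicle its log2 fold change was 2.34 ± 0.82 (edgeR, unadjusted p = 0.027, adjusted p = 1.0), and without HFD Vehicle 50 it was 3.40 ± 0.63 (adjusted p = 0.80). In that last comparison 0 of the 5 genes passed in edgeR or limma-voom and 4 in DESeq2.

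The lymphatic and macrophage gene Lyve1 was highest in HFD PCN as well. It was at 37.7, 26.3 and 19.0 CPM in Chow, 21.4, 19.5 and 14.7 CPM in HFD, 27.9, 26.9 and 6.35 CPM in HFD Vehicle, and 40.8, 60.0 and 97.8 CPM in HFD PCN. It rose by 1.21 ± 0.34 against Chow (edgeR, adjusted p = 0.030), a call lost without PCN 27 (0.82), Chow 17 (1.18) or Chow 19 (1.01), and in the fit over all 12 libraries (1.25, adjusted p = 0.093). Prox1 did not pass in the same libraries.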
